A study of Rattus norvegicus with 241 samples.

Results

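CD4 T cells of whole mammary glands were picked from single-cell RNA-seq of 9 SD rats by the UMIs of a few genes (a UMI marks 1 captured RNA molecule). A cell was a member when it had at least 2 UMIs summed over CD3E, CD3D and CD3G, at least 1 CD4 UMI, and 0 UMIs over CD8A, CD8B, CD79B and C1QA. The rule took 2354 of 103524 cells, and the members held 13906089 UMIs over 18237 genes. The animals were virgin female outbred Sprague Dawley rats (Hsd:Sprague Dawley) dosed by oral gavage from about 24 days of age. Of these, 6 rats received TGFBRi (LY2157299, a drug that blocks the kinase of TGFBR1) at 75 mg/kg, with 2 doses per day for 10 days. The 3 control rats received vehicle, and glands of both groups were collected on day 0 after the last dose. No cells were sorted by lineage, so that each library held the epithelium, stroma and leukocytes of 1 animal's glands.

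CD4 T cells recognize peptides on MHC class II through the T cell receptor and its CD3 signaling chains, and steer other cells through surface ligands such as CD40LG and through cytokines. A subset, the regulatory T cells, carries the transcription factor FOXP3 and restrains immune responses. TGFβ, mostly TGFB1 in lymphocytes, acts through TGFBR2 and TGFBR1 on SMAD2 and SMAD3, helps to induce FOXP3 in peripheral CD4 T cells, and restrains the activation and cytotoxic differentiation of T cells. SMAD7, SKIL and LDLRAD4 are inhibitors of the same pathway.

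The vehicle-treated rats 1, 2 and 4 gave 180, 138 and 54 members, and the TGFBRi-treated rats 1, 2, 4, 6, 11 and 14 gave 288, 268, 450, 330, 403 and 243. Members had a median of 3296 to 4926.5 UMIs per cell and rat, and the median sum of CD3 UMIs was 9 to 14, well inside the rule. Near its edge, 75 members had exactly 2 CD3 UMIs, and 82 cells that met the rest of the rule stayed outside with 1. The CD4 transcript itself was sparse. Of the members, 58.2 to 73.9% per rat had a single CD4 UMI, while 6174 further cells with CD3 had neither a CD4 nor a CD8 UMI and stayed outside, so that the members are a part of the CD4 T cells. CD8 T cells, taken by the same rule with CD4 and CD8 exchanged, numbered 4291 and served for comparison. Libraries held 7900 to 16424 cells, and any pair of libraries shared 88 to 284 cell barcodes, of which at most 1 belonged to a member in both. The sums of vehicle-treated rat 4, the smallest with 277822 UMIs, correlated less with those of its own group (log levels over genes, r = 0.874 to 0.881) than the other two vehicle-treated rats did with each other (0.930) or the TGFBRi-treated rats did among themselves (0.954 to 0.969).

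Summed over the members, genes that the rule did not use fitted the label. The 17 measured genes of a T cell identity list (CD2, LCK, CD247 and others) all had UMIs in the members and summed to 3623 CPM (UMIs scaled to a common total per library, the unit of all levels here) on average over the rats, against 44.6 in B cells taken by CD79B and 7.23 in epithelial cells taken by keratins. The identity list lay at 3030 CPM in CD8 T cells, so that it marks T cells of both kinds. All 10 genes of a helper T cell list were found as well, at 1529 CPM against 383 in CD8 T cells. A minority went against the label. In 83 members (3.53%) at least 3 UMIs fell on IRF8, SIGLECH, BLNK, CYB561A3 and FCRLA, genes known from plasmacytoid dendritic cells and B cells, and rat dendritic cells and macrophages can themselves carry CD4. These 83 had 34.3 TYROBP UMIs per cell against 0.195 in the other members, and 0.759 LCK UMIs per cell against 2.75. Partly the same, other members had at least 2 UMIs over a short list of epithelial, fibroblast, macrophage, endothelial and B cell transcripts, and they were unevenly spread, with 25 of the 54 members of vehicle-treated rat 4 among them. Leaving out both kinds kept 1910 members, called the narrower set here.

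CD4 T cells took a larger share of the gland in TGFBRi-treated rats. They made up 1.096%, 1.09% and 0.458% of all cells in the vehicle-treated rats 1, 2 and 4, and 3.36%, 3.39%, 3.75%, 2.79%, 3.51% and 2.22% in the TGFBRi-treated rats 1, 2, 4, 6, 11 and 14. No TGFBRi-treated rat lay within the range of the vehicle-treated rats. The means were 0.883 ± 0.368% (SD, n = 3) and 3.17 ± 0.561% (SD, n = 6), a ratio of 3.59 (exact permutation test over rats, two-sided, p = 0.0238, the smallest that 3 against 6 rats can give). Among cells with a PTPRC UMI (PTPRC encodes CD45, carried by all leukocytes) the share was 2.41 to 3.69% in vehicle-treated and 5.98 to 8.94% in TGFBRi-treated rats, again without overlap and with an exact permutation p of 0.0238. With the rule applied to cells thinned to 1000 UMIs each, which removes differences in depth, it was 0.287 ± 0.120% and 0.996 ± 0.171%, a ratio of 3.46. Without any 1 vehicle-treated rat the smallest attainable exact permutation p is 0.0714, and that value was reached each time.

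Other lymphocytes moved in the same direction, with overlapping groups. CD8 T cells were 3.68%, 1.62% and 1.61% of cells in the vehicle-treated rats and 3.54 to 8.83% in the TGFBRi-treated rats (exact permutation p = 0.0476). B cells were 12.1%, 13.1% and 1.83% in the vehicle-treated rats and 12.6 to 19.8% in the TGFBRi-treated rats (exact permutation p = 0.0476), so that vehicle-treated rat 4 was low in both CD4 T cells and B cells. Counted over cells that were not B cells, CD4 T cells were 0.991 ± 0.454% in the 3 vehicle-treated and 3.79 ± 0.643% in the 6 TGFBRi-treated rats. The part of the B cell share in these differences was not tested otherwise. Within CD4 and CD8 T cells together, CD4 cells were 22.9%, 40.4% and 22.1% in the vehicle-treated rats and 37.2%, 42.2%, 47.1%, 44.1%, 28.4% and 32.6% in the TGFBRi-treated rats. These ranges overlapped, and the difference of the means, 10.1 percentage points, did not pass the test (exact permutation p = 0.143).

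**Figure D1:**
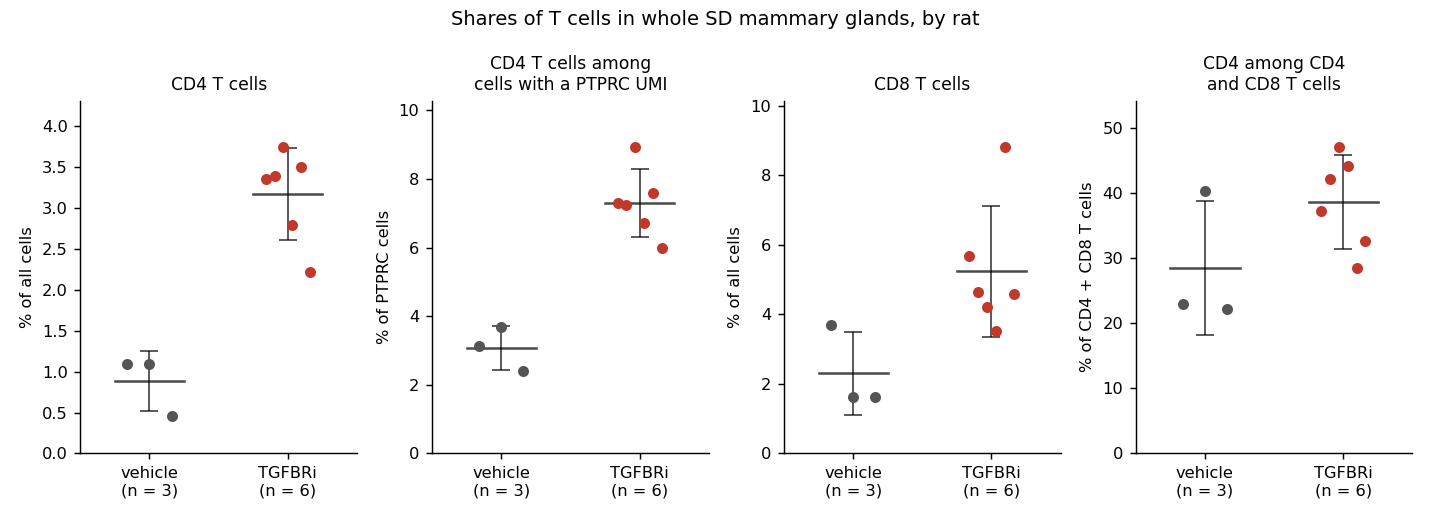
Share of CD4 T cells among all cells and among cells with a PTPRC UMI, of CD8 T cells among all cells, and of CD4 cells among CD4 and CD8 T cells, each in percent on the vertical axis, for 3 vehicle-treated (grey) and 6 TGFBRi-treated rats (red); each point is 1 rat, and bars give the mean and SD. The CD4 shares of the 2 groups lie apart in the first and second panels (0.458 to 1.096% against 2.22 to 3.75%, and 2.41 to 3.69% against 5.98 to 8.94%), while the CD8 share and the CD4 part of T cells overlap.

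Within each rat, CD4 and CD8 T cells were then compared to describe what the members are (edgeR's quasi-likelihood test on UMIs summed per rat, with the rat as a block, Benjamini-Hochberg adjusted p of 0.1 or less, genes of the rule left out of the test). Of 13316 genes tested, 4571 (34.3%) differed, 2358 (17.7%) higher and 2213 (16.6%) lower in CD4 T cells. Helper genes were higher throughout, with 10 of 10 tested genes of that list called and a median log2 fold change of 1.28, against -0.04 over all genes. TNFRSF4 (OX40, a costimulatory receptor of activated and regulatory T cells) lay at 382 to 756 CPM in CD4 and 1.31 to 64.5 in CD8 T cells, a log2 fold change of 4.85 (SE 0.23, adjusted p = 1.22e-10). CD40LG, the ligand by which helper cells activate B cells and dendritic cells, lay at 43.2 to 135 against 2.62 to 16.5 CPM (log2 fold change 2.66, SE 0.16, adjusted p = 1.71e-09). ICOS lay at 293 to 702 against 107.3 to 225, and CTLA4, an inhibitory receptor, at 109 to 160 against 39.2 to 80.9 CPM, both higher in 9 of 9 rats. ZBTB7B, the factor that commits thymocytes to the CD4 lineage, was scarce, with 91 UMIs in all CD4 against 18 in all CD8 T cells, and passed as well (log2 fold change 2.64, SE 0.41, adjusted p = 0.000106).

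Regulatory genes and genes of dividing cells also lay on the CD4 side. Of 19 tested genes of the regulatory T cell list 17 were higher and none lower, at a median of 2.13 on the log2 scale, and FOXP3 itself lay at 97.98 to 216 CPM in CD4 and 3.93 to 29.9 in CD8 T cells (log2 fold change 3.30, SE 0.17, adjusted p = 3.97e-10). IL2RA, the high-affinity chain of the interleukin 2 receptor, lay at 79.2 to 176 against 7.85 to 39.5 CPM. All 20 S phase genes and all 19 tested G2/M genes were higher in CD4 T cells, with median log2 fold changes of 1.39 and 2.44. MKI67, a marker of cycling cells, lay at 72.1 to 240 against 2.59 to 63.2 CPM. With both rules applied to cells thinned to a common depth, the mean CD4 part of CD4 and CD8 T cells was lower. It was 18.8% against 28.5% without thinning in vehicle-treated and 25.4% against 38.6% in TGFBRi-treated rats. Taking a cell as CD4 thus depended on depth more than taking it as CD8. Median UMIs per cell and rat were 3296 to 4926.5 in CD4 and 2991 to 4827 in CD8 T cells. The part of depth in the higher cycling genes was not tested. Among the 10 named genes with the largest changes (the rule for naming is given with the methods), CCR4, ITGB8, IZUMO1R, NEB, TOX2, CD52 and TNFRSF4 stayed called in the narrower set. CYB561A3, JCHAIN and LOC24906 did not, with CYB561A3 and JCHAIN at log2 fold changes of -0.22 and -0.65 there and LOC24906 too low to be tested. Helper lineage genes were mixed. RORA, which acts in Th17 and innate lymphoid cells, lay at 35.99 to 158 against 6.11 to 35.5 CPM, 4 of 7 tested Th17 genes were higher and 1 lower, and 5 of 7 tested Th1 genes were lower, among them TBX21 and IFNG.

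Genes of naive cells and of killing lay on the CD8 side. Of 14 tested genes of the naive and recirculating list, 12 were lower in CD4 T cells and only IL6ST was higher. LEF1, a factor of naive T cells, lay at 50.4 to 234 CPM in CD4 and 164 to 436 in CD8 T cells (log2 fold change -1.45, SE 0.09, adjusted p = 1.97e-09), and TCF7 at 50.4 to 224 against 99.5 to 274. CCR7, which leads T cells into lymph nodes, was nearly alike, at 440 to 980 against 565 to 914 CPM (log2 fold change -0.20, SE 0.07, adjusted p = 0.0354), and was higher in CD4 T cells in 4 of 9 rats. Of 17 tested cytotoxic genes 12 were lower, among them CTSW at 6.83 to 40.98 against 552 to 737, NKG7 at 0 to 18.0 against 66.5 to 199, and the pore-forming PRF1 at 25.2 to 45.5 against 79.8 to 149 CPM. RUNX3, FASLG and CST7 of the same list were higher in CD4 T cells. The gut-homing receptor CCR9 had 31 UMIs in CD4 and 1130 in CD8 T cells. KLRA22, of a family of natural killer receptors with similar copies between which reads may be split, had 371 UMIs in CD8 and 0 in CD4 T cells, at least 89.5-fold lower when 3 counts over all CD4 T cells stand for 0. Ribosomal protein genes, of which 76 of 93 tested were lower, had a median log2 fold change of -0.49.

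**Figure D2:**
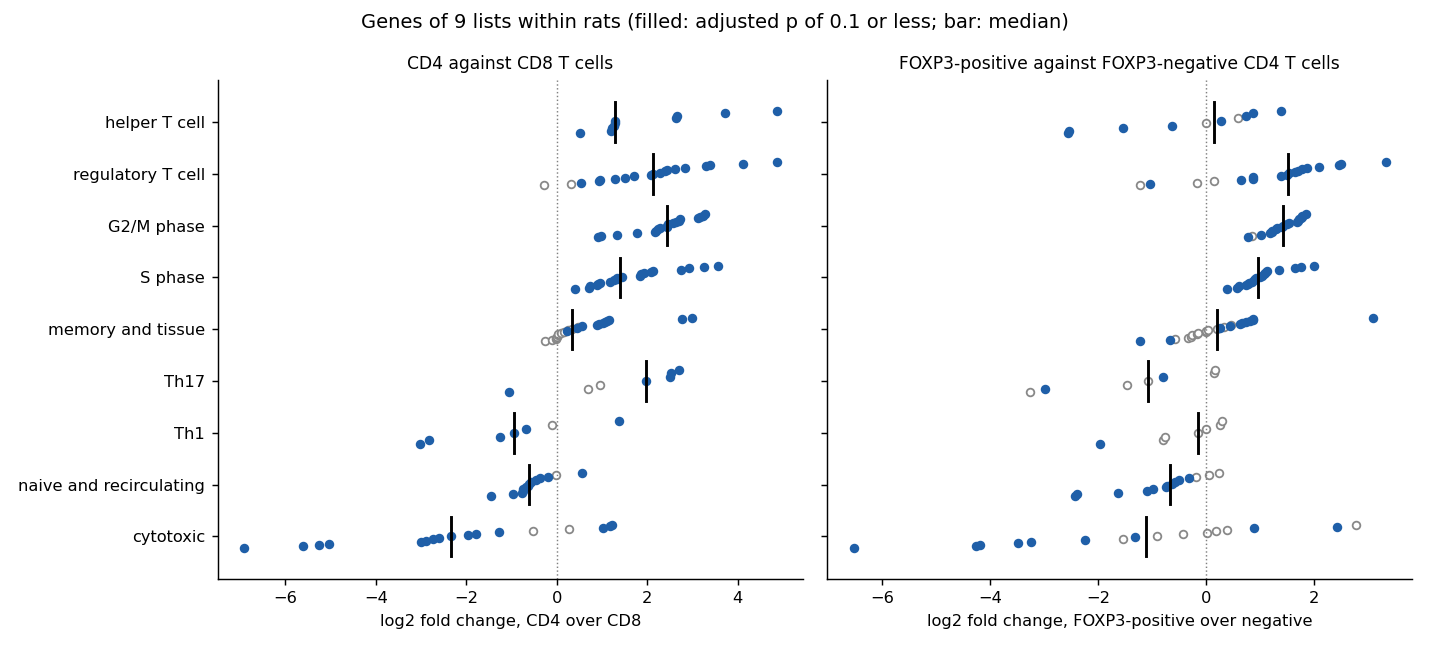
Log2 fold changes within rats of the genes of 9 lists, between CD4 and CD8 T cells (left) and between FOXP3-positive and FOXP3-negative CD4 T cells (right); each point is 1 gene, filled where the adjusted p is 0.1 or less, and black bars are list medians. Helper, regulatory, S phase and G2/M genes lie to the right on the left panel and cytotoxic and naive genes to the left, while on the right panel the helper list is split around its median of 0.14.

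A FOXP3 UMI was found in 541 members. After thinning each member to 1000 UMIs (48 members with fewer left out), 11.2% of members had one, against 1.31% of CD8 T cells, 0.0525% of B cells and 0.0275% of epithelial cells, and without thinning it was 22.98%. The thinned share was 11.3 to 17.2% in vehicle-treated and 6.84 to 14.3% in TGFBRi-treated rats, with overlap, and did not pass the test (exact permutation p = 0.167). With at least 3 CD3 UMIs required of a member the difference of the means was -3.74 percentage points (exact permutation p = 0.0238), against -3.57 in all members. Each set of cells was thinned in its own random draw. The parts of the rule and of the draw in this call were not tested.

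Members with and without a FOXP3 UMI in the same rat differed in 2776 of 12058 genes tested (23%, same test, FOXP3 left out), 1135 (9.41%) higher and 1641 (13.6%) lower with FOXP3. FOXP3-positive members were deeper, with medians of 4335 to 6055 UMIs per rat against 2992.5 to 4612.5, and cells without a FOXP3 UMI can still express it. The regulatory genes were mostly higher, with 14 of 18 tested genes of the list higher and only SOCS2 lower, at a median log2 fold change of 1.51 against -0.12 over all genes. IL2RA lay at 130 to 324 CPM in FOXP3-positive and 43.3 to 116 in FOXP3-negative members (log2 fold change 1.88, SE 0.11, adjusted p = 3.77e-10). TNFRSF9 (4-1BB, a costimulatory receptor) lay at 737 to 1448 against 114 to 274, the groups of members not overlapping over the 9 rats, with a log2 fold change of 2.47 (SE 0.12, adjusted p = 2.10e-10). CTLA4 lay at 175 to 232 against 78.2 to 138, and IKZF2 (Helios) at 93.3 to 174 against 21.7 to 61.7 CPM. IL10, an inhibitory cytokine, had 52 UMIs in FOXP3-positive and 10 in FOXP3-negative members. NEB, CAPG, TTC39C, CCR10, GBP4 and CD200R1, also among the 10 genes with the largest rises, were higher in 9 of 9 rats, as the naming rule requires, and stayed called in the narrower set. Cycling genes were higher as well, 19 of 20 in S phase and 18 of 19 in G2/M.

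FOXP3-negative members carried the helper ligand and the naive genes. CD40LG lay at 50.6 to 163 CPM in FOXP3-negative and 11.4 to 24.96 in FOXP3-positive members (log2 fold change -2.57, SE 0.14, adjusted p = 3.77e-10), with no overlap over the 9 rats. LEF1 lay at 55.6 to 317 against 18.2 to 51.7, SATB1 at 106.2 to 469 against 47.8 to 181, and CCR7 at 593 to 1219 against 216 to 654 CPM, each lower with FOXP3 in all 9 rats. Of 14 tested naive and recirculating genes 11 were lower and none higher. IL2, the growth factor that regulatory T cells consume and do not make, had 36 UMIs in FOXP3-negative and 0 in FOXP3-positive members, at least 5.67-fold lower when 3 counts over all FOXP3-positive members stand for 0. Early activation genes were lower in 12 of 22 cases, EGR1 and FOS among them, against 13.6% of all genes. Of the 10 genes with the largest falls, CD7, KLRD1, CTSW and CLCA1 stayed called in the narrower set, and JCHAIN, CYB561A3, IRF8, TYROBP, PLD4 and LOC24906 did not, JCHAIN and CYB561A3 being at log2 fold changes of 0.36 and 1.28 there, and 3 of the 83 members with dendritic cell genes having a FOXP3 UMI.

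**Figure D3:**
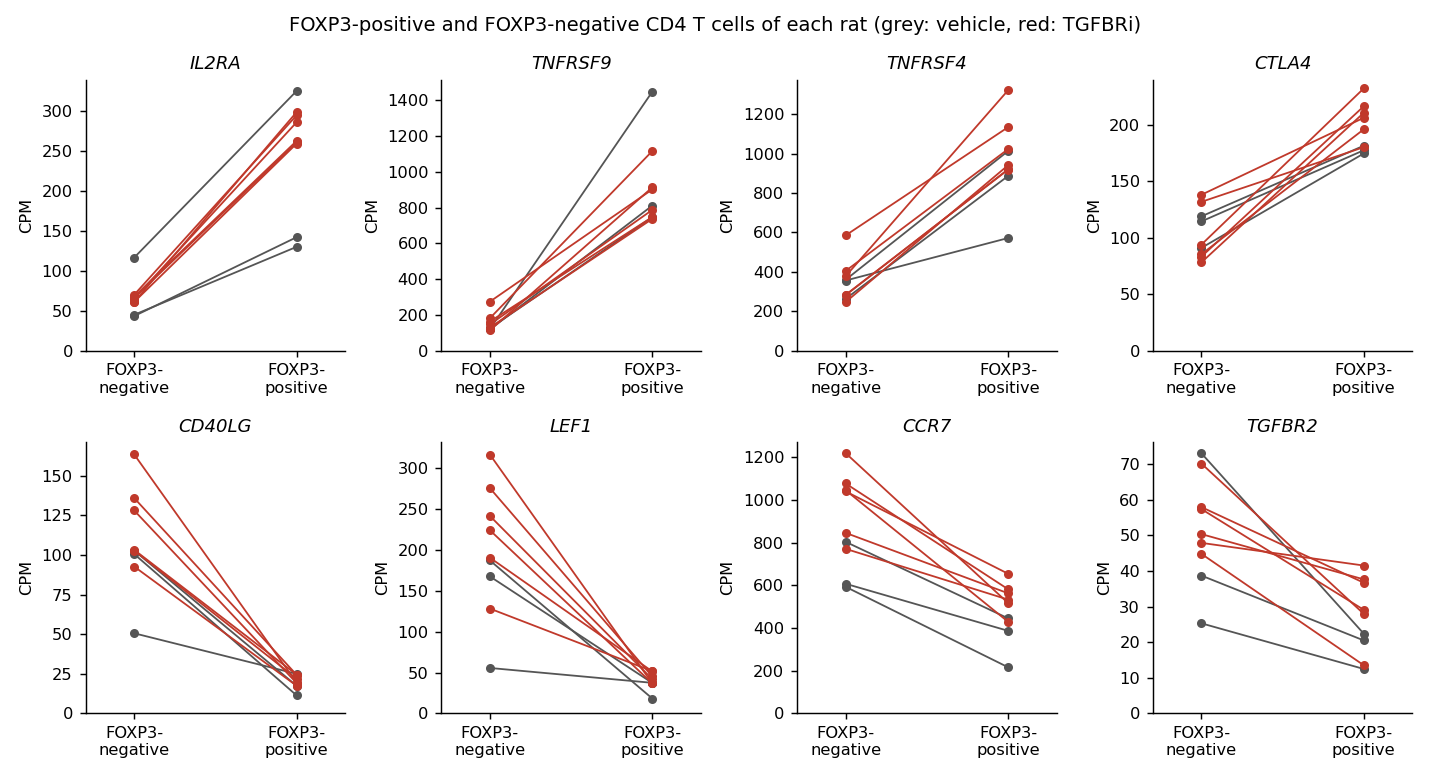
Summed CPM of 8 genes in FOXP3-negative and FOXP3-positive CD4 T cells; each line joins the 2 values of 1 rat (grey for 3 vehicle-treated, red for 6 TGFBRi-treated rats). IL2RA, TNFRSF9, TNFRSF4 and CTLA4 were higher and CD40LG, LEF1, CCR7 and TGFBR2 lower with FOXP3 in each of the 9 rats.

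Genes of TGFβ signaling differed between the FOXP3-positive and FOXP3-negative members. TGFBR2, the receptor that binds the ligand, lay at 12.5 to 41.5 CPM with FOXP3 and 25.3 to 73.03 without (log2 fold change -0.99, SE 0.17, adjusted p = 0.000304), lower in all 9 rats, and the coreceptor TGFBR3 was lower as well (-0.85, adjusted p = 0.0111). Of 11 tested SMADs and inhibitors 4 were lower and 2 higher. SMAD7, SMAD3, TGIF1 and SMURF2 were lower (log2 fold changes -1.06, -1.39, -0.61 and -1.23), while SMAD2 and LDLRAD4 were higher (0.62 and 1.41). The ligand TGFB1 was higher with FOXP3 in 7 of 9 rats (log2 fold change 0.30, SE 0.10, adjusted p = 0.0373), while TGFB3, with 28 UMIs in FOXP3-negative and 2 in FOXP3-positive members, was lower (log2 fold change -2.49, SE 0.84, adjusted p = 0.0484) and too low to be tested in the narrower set. Of 10 genes that store or activate latent TGFβ 2 were higher and 3 lower, where 9.41% of all genes were higher and 13.6% lower, at a median log2 fold change of -0.23 against -0.12 over all genes. LRRC32 (GARP, which tethers it to the surface of regulatory T cells) and ITGB8 (an integrin chain that frees it) were higher, with log2 fold changes of 2.09 and 1.65, and were called in the narrower set too. LTBP3, which binds latent TGFβ to the matrix, the protease FURIN, which cleaves its precursor, and THBS1 were lower, with log2 fold changes of -2.27, -0.78 and -1.33 (adjusted p = 0.0122, 0.0174 and 0.0905), and THBS1 was called in 2 of 9 fits without 1 rat. None of these 3 kept the call in the narrower set, where LTBP3 was too low to be tested and FURIN and THBS1 lay at -0.31 and 1.24. Against CD8 T cells, CD4 T cells had less TGFBR2 (21.6 to 52.5 against 42.8 to 64.4 CPM, log2 fold change -0.50, SE 0.08, adjusted p = 0.000139) and SMAD7 (-0.89), more TGFBR3 (0.70) and LDLRAD4 (29.1 to 135 against 6.11 to 21.8, log2 fold change 2.16), and did not differ beyond the test in TGFBR1 (0.01, SE 0.15, adjusted p = 0.982) or SKIL (-0.36, SE 0.19, adjusted p = 0.189).

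TGFBRi-treated and vehicle-treated rats were then compared within the members (edgeR as above, without a block). Of 12059 genes tested 352 (2.92%) passed, 160 higher (1.33%) and 192 lower (1.59%) in TGFBRi-treated rats. The split depended on the scaling, 32.3% of the calls being higher, against 45.5%, when libraries were scaled by DESeq2's size factor method (RLE) in place of TMM, and the median log2 fold change of all genes moved from 0.05 to 0.01. The count depended on single animals, at 54 without vehicle-treated rat 2, where 16 of the 20 named genes lost the call, and 430 without vehicle-treated rat 4, and 34 of the 352 genes were called in each of the 9 fits without 1 rat. In the narrower set it was 213, with 81 of the 160 and 72 of the 192 still called.

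HMOX1 had the largest fold change of the 10 named falls. HMOX1 (heme oxygenase, which breaks down heme) lay at 755, 1532 and 191 CPM in the vehicle-treated rats 1, 2 and 4 and at 27.2, 71.5, 61.3, 30.8, 51.2 and 19.7 in the TGFBRi-treated rats 1, 2, 4, 6, 11 and 14. All vehicle-treated rats lay above all TGFBRi-treated rats, as the naming rule requires, and vehicle-treated rat 4 was the lowest of its group. The log2 fold change was -4.15 (SE 0.45, adjusted p = 0.00176), and the call held in each of 9 fits that left out 1 rat. NQO1 (a quinone reductase), another named fall, lay at 141, 330 and 86.4 CPM in the vehicle-treated rats and 6.95 to 25.9 in the TGFBRi-treated rats (log2 fold change -3.35, SE 0.33, adjusted p = 0.00133). Both are known targets of the oxidative-stress factor NRF2. Of the members, 14.8 to 35.6% had an HMOX1 UMI in vehicle-treated and 4.86 to 8.67% in TGFBRi-treated rats (5.66 to 19.4% and 1.26 to 3.396% after thinning), and the single member with the most HMOX1 held 30.2 to 52.8% of a vehicle-treated rat's HMOX1 UMIs.

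Both genes were also higher on average in other cells of the vehicle-treated libraries. In CD8 T cells HMOX1 lay at 968, 656 and 91.6 CPM in the vehicle-treated rats 1, 2 and 4 against 12.1 to 119 in the TGFBRi-treated rats, so that the groups overlapped through rat 4, and NQO1 at 86.4, 57.8 and 30.1 against 3.03 to 15.2, without overlap. In B cells HMOX1 lay at 416 to 1538 against 40.4 to 145 CPM, in epithelial cells at 829 to 3653 against 318 to 513, and over all cells at 1460 to 4873 against 364 to 661. In the narrower set HMOX1 lay at 137, 883 and 54.03 CPM in the vehicle-treated and 7.42 to 12.2 in the TGFBRi-treated rats (log2 fold change -5.13, adjusted p = 5.15e-05), and NQO1 was called there as well (-3.91, adjusted p = 1.64e-05). The part of these other cells' RNA in the members' values was not tested. Further genes of iron and redox handling, chosen after their values were seen, fell in the members with smaller changes. TXNRD1 (thioredoxin reductase) lay at 287, 438 and 216 against 101.8 to 176 CPM (log2 fold change -1.23, SE 0.20, adjusted p = 0.0147). SLC3A2, the heavy chain of the cystine transporter, lay at 393, 461 and 400 against 206 to 235 (-0.89, SE 0.10, adjusted p = 0.00177). The ferritin chains FTH1 and FTL1, whose processed copies in the genome can share reads, and the autophagy adapter SQSTM1 had log2 fold changes of -0.73, -0.89 and -0.84, each without overlap of the groups and each called in the narrower set. These falls were not particular to the members. SLC3A2, SQSTM1 and FTL1 were lower without overlap in CD8 T cells, B cells and over all cells, FTL1 at 689 to 902 against 387 to 495 CPM in CD8 T cells. TXNRD1 was lower without overlap in B cells (134 to 274 against 54.9 to 71.4) but overlapped in CD8 T cells. FTH1 was lower without overlap in both, but overlapped over all cells. The part of other cells' RNA was not tested here either.

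CXCL3, a neutrophil-attracting chemokine, lay at 168, 671 and 511 CPM in the vehicle-treated and 23.4 to 137 in the TGFBRi-treated rats (log2 fold change -2.76, SE 0.54, adjusted p = 0.0277), with 37.6 to 96.5% of its UMIs in a vehicle-treated rat in 1 member. In the narrower set its level was 10.5, 32.8 and 20.3 against 0 to 6.61 CPM, and it was called with a fold change about as large (-2.67, adjusted p = 0.0508). That call rested on few cells, CXCL3 being found in 8, 13 and 3 narrower-set members of the vehicle-treated rats 1, 2 and 4. Over all cells of the glands CXCL3 lay at 1860 to 2536 against 168 to 280, and the part of other cells' RNA in the members' values was not tested. THBD and PROCR, of endothelium, IL1RL1 (the interleukin 33 receptor), PHLDA3, TM4SF1, CSF3 and AABR07054319.1 had log2 fold changes of -3.46 to -2.42 and, apart from AABR07054319.1, which was not counted by member, were found in at most 9.42% of a rat's members. Of these 7, none was called in the narrower set, where the log2 fold changes were -3.35 for CSF3 (adjusted p = 0.102), -2.21 for THBD, -2.01 for AABR07054319.1, -1.95 for PHLDA3, -1.40 for IL1RL1, -1.36 for TM4SF1 and -0.49 for PROCR. The direction of the fold was kept in each, but the groups overlapped there for all 7 genes. The fold was close to that in all members for CSF3 and far smaller for PROCR. For CSF3 it rested on vehicle-treated rat 2, at 63.5 CPM in the narrower set. Vehicle-treated rats 1 and 4 lay at 1.17 and 0 there, within the 0 to 5.25 of the TGFBRi-treated rats. TM4SF1 was likewise high in vehicle-treated rat 2 alone, at 59.4 CPM. Vehicle-treated rats 1 and 4 lay at 9.37 and 6.75 for TM4SF1, within the 6.10 to 16.3 of the TGFBRi-treated rats. Marker genes of endothelium summed to 88.4 to 465 CPM in members of vehicle-treated and 46.98 to 155 in those of TGFBRi-treated rats, and their part in these falls was not tested.

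CCR7 and CD27 were higher after TGFBRi. CCR7 lay at 440, 617 and 544 CPM in the vehicle-treated and 980, 914, 767, 697, 862 and 926 in the TGFBRi-treated rats (log2 fold change 0.74, SE 0.14, adjusted p = 0.0231). CD27, a costimulatory receptor of naive and memory T cells, lay at 240, 251 and 198 against 399, 400, 367, 364, 430 and 421 (log2 fold change 0.83, SE 0.11, adjusted p = 0.00464). Both sets of groups stood apart, and both calls held without any 1 rat and in the narrower set. Both genes were also higher in CD8 T cells of TGFBRi-treated rats without overlap, CCR7 at 565 to 692 against 725 to 914 CPM and CD27 at 293 to 476 against 503 to 710. CD27 was near 0 in B cells and epithelium (at most 2.75 and 0.868 CPM in any rat). CCR7 in B cells went the other way on average, at 661 to 933 against 466 to 692 CPM. Of 17 tested T cell identity genes 6 were higher (35.3%, against 1.33% of all genes) and none lower, among them CD6, CD27, CD247, SKAP1 and UBASH3A, at a median log2 fold change of 0.45 against 0.05 over all genes. CD247, the zeta chain of the T cell receptor complex, lay at 217, 262 and 137 against 286 to 389 CPM. In CD8 T cells of the same rats 11 of the 17 were higher, against 6.31% of 12443 genes called there in either direction (3.15% higher, 3.16% lower). The summed level of the identity list was 2642 to 3351 in vehicle-treated and 3711 to 4295 CPM in TGFBRi-treated rats, the groups not overlapping.

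Among the 10 named rises with the largest fold changes, TTYH3, an ion channel, lay at 11.98, 15.6 and 14.4 against 28.8 to 47.9 CPM (log2 fold change 1.56, SE 0.25, adjusted p = 0.0147) and was the only one called in all 9 fits without 1 rat. It was also higher over all cells of the glands, at 11.8 to 16.7 against 31.5 to 36.8. KDM2B, a histone demethylase, lay at 16.6, 10.4 and 0 against 29.7 to 47.4, and RAB11FIP4 at 9.21, 3.89 and 3.60 against 18.6 to 26.1 CPM. KLRK1 (NKG2D, an activating receptor of cytotoxic cells) lay at 6.45, 6.48 and 10.8 against 13.2 to 65.7 (log2 fold change 2.27, SE 0.60, adjusted p = 0.0847). The vehicle-treated rats 1, 2 and 4 had only 18, 8 and 0 UMIs of KDM2B, 10, 3 and 1 of RAB11FIP4, and 7, 5 and 3 of KLRK1. In CD8 T cells KDM2B was also higher without overlap (6.54 to 14.5 against 16.4 to 26.6), while RAB11FIP4 and KLRK1 overlapped. In B cells KDM2B lay at 12.5 to 19.03 against 34.3 to 41.4. Without vehicle-treated rat 2, only 1 of the 10 named rises was still called. SNTB1, PANX1, SH3BP2 and AABR07017635.2 were called in the narrower set too, and PTPRF and IGTP were not. RUNX3, which drives cytotoxic differentiation, lay at 75.6 to 82.9 against 110 to 171 CPM (log2 fold change 0.88, SE 0.16, adjusted p = 0.0231). Of 16 tested cytotoxic genes these 2 (KLRK1 and RUNX3) were called, 12.5% against 1.33% of all genes called higher, at a median log2 fold change of 0.54 against 0.05 over all genes.

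**Figure D4:**
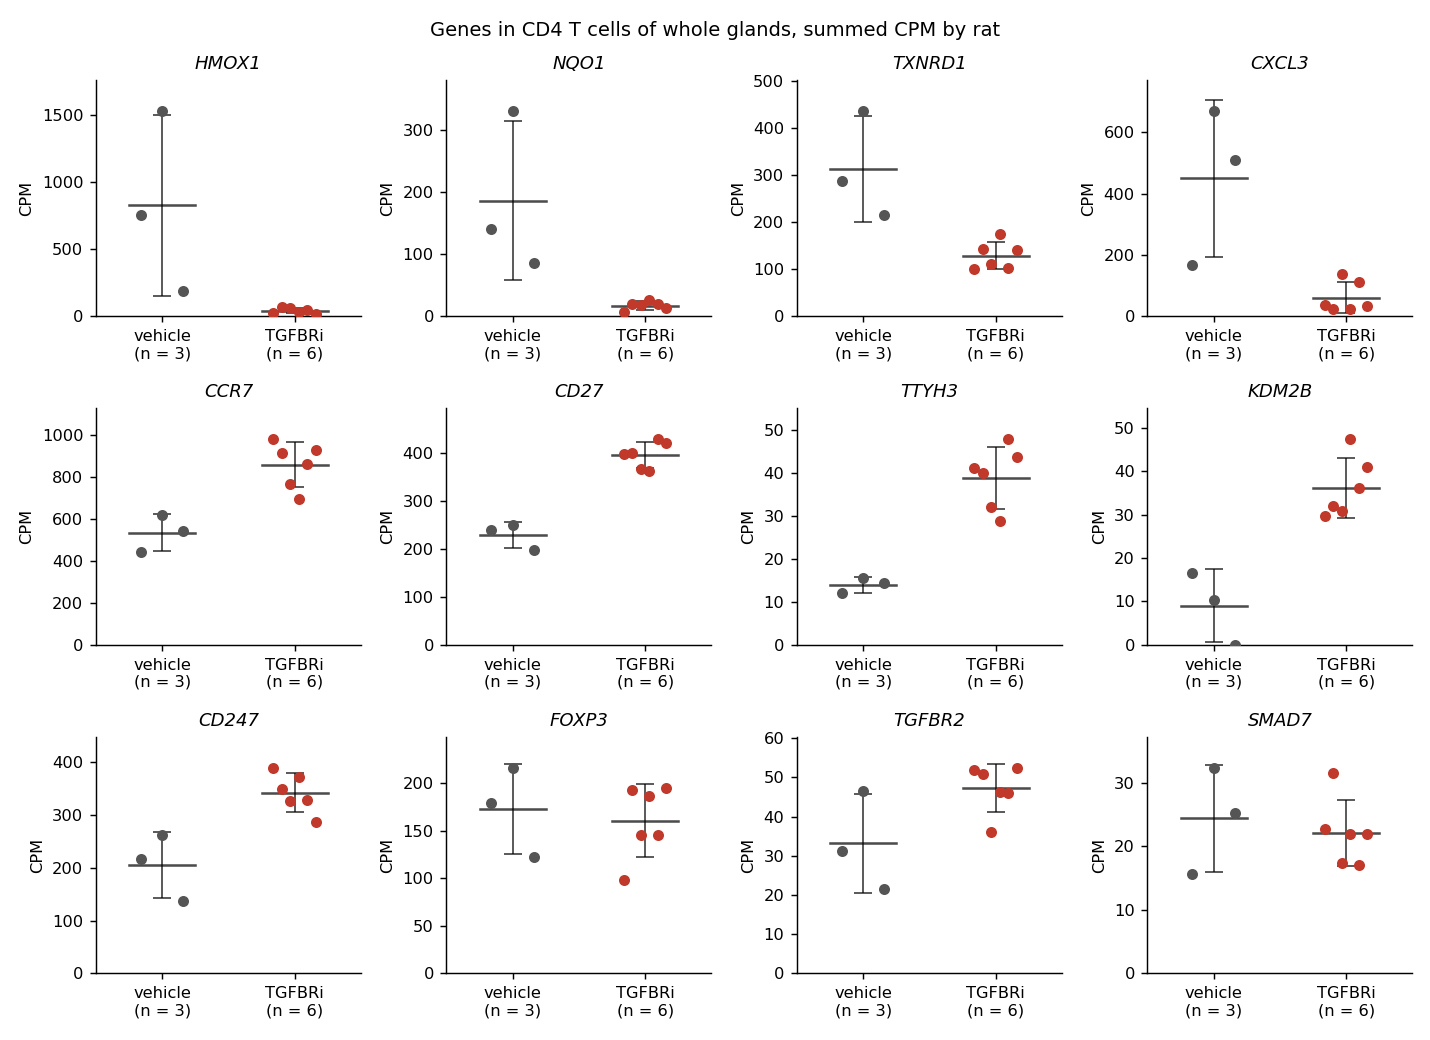
Summed CPM of 12 genes in CD4 T cells of 3 vehicle-treated (grey) and 6 TGFBRi-treated rats (red), 1 point per rat, with mean and SD. HMOX1, NQO1, TXNRD1 and CXCL3 are lower and CCR7, CD27, TTYH3, KDM2B and CD247 higher in TGFBRi-treated rats without overlap, while FOXP3, TGFBR2 and SMAD7 overlap.

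Regulatory and helper genes gave no call between the treatments. None of 19 tested regulatory and none of 10 helper genes passed, at median log2 fold changes of -0.01 and 0.16. FOXP3 lay at 180, 216 and 122 CPM in vehicle-treated and 97.98 to 195 in TGFBRi-treated rats (log2 fold change -0.08, SE 0.21, adjusted p = 0.925). CTLA4 lay at 140, 152 and 115 against 109 to 160 (0.01, SE 0.15, adjusted p = 0.996), and IL2RA at 79.2, 94.6 and 176 against 114 to 149 (0.30, SE 0.22, adjusted p = 0.591). CD40LG lay at 64.5, 58.3 and 43.2 against 61.3 to 135 and did not pass (0.74, SE 0.25, adjusted p = 0.180). CD69, an early activation and retention marker, lay at 170, 254 and 439 against 210 to 300 (-0.11, SE 0.24, adjusted p = 0.907). In the naive and recirculating list CCR7 and SATB1 were higher, SATB1 at 221, 223 and 89.99 against 245 to 367. In the memory and tissue list S100A11 was lower (415 to 439 against 248 to 356), and ITGAE, an integrin of tissue-resident T cells that TGFβ induces, was scarce at 3.60 to 17.5 against 11.7 to 19.6 CPM (0.31, SE 0.31, adjusted p = 0.715). None of the Th1, Th17, follicular helper, cytokine, S phase, G2/M or heat shock genes passed, and in the Th2 list IL1RL1 did. The G2/M genes summed to 1694 to 2587 CPM in vehicle-treated and 1170 to 2024 in TGFBRi-treated rats, with overlap. The S phase genes summed to 932 to 1536 against 619 to 1434, also with overlap. Of 22 tested early activation genes FOSB was higher and none lower, at 181, 232 and 176 against 272 to 410 CPM without overlap (0.89, SE 0.16, adjusted p = 0.0216), and it was called in the narrower set (0.78, adjusted p = 0.0286). Of 21 tested interferon-stimulated genes 2 scarce ones were lower, against 1.59% of all genes, and neither was called in the narrower set. RSAD2 lay at 17.5, 10.4 and 10.8 against 0.729 to 3.16 CPM (-2.74, SE 0.45, adjusted p = 0.0154; -2.07 with an adjusted p of 0.392 in the narrower set). OASL lay at 39.6, 5.18 and 3.60 against 1.13 to 4.42, with overlap (-3.16, SE 0.62, adjusted p = 0.0277), and was too low to be tested there. Of 92 tested ribosomal protein genes 7 were higher and none lower, at a median log2 fold change of 0.16, where 1.33% of all genes were higher, at a median of 0.05.

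Few TGFβ pathway genes were called between the treatments. The ligand TGFB1 lay at 234, 251 and 252 against 227 to 296 CPM (log2 fold change 0.11, SE 0.12, adjusted p = 0.741). None of the 3 ligand or 5 receptor genes was called, TGFBR2 lying at 31.3, 46.7 and 21.6 against 36.1 to 52.5 (0.48, SE 0.20, adjusted p = 0.284) and TGFBR1 at 16.6, 18.1 and 7.20 against 10.53 to 24.7 (0.12, SE 0.33, adjusted p = 0.982). Among 11 tested SMADs and inhibitors only LDLRAD4 passed, at 86.6, 135 and 61.2 against 29.1 to 67.5 CPM (-0.98, SE 0.27, adjusted p = 0.0913), and the call was lost in 6 of 9 fits without 1 rat. SMAD7 lay at 15.7, 32.4 and 25.2 against 17.1 to 31.5 (-0.03, SE 0.28, adjusted p = 0.991), and SKIL, a scarce transcript, at 6.45 to 10.8 against 4.42 to 11.7. Of 16 genes known as TGFβ targets in T cells 2 were lower, LDLRAD4 among them, and none higher, with a median log2 fold change of 0.00. Of all genes 1.59% were lower and 1.33% higher, at a median of 0.05. THBS1, which activates latent TGFβ, was lower (-1.85, SE 0.30, adjusted p = 0.0147) and was not called in the narrower set (0.89, adjusted p = 0.842).

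The states of single members, as shares with a UMI after thinning to 1000 UMIs, were compared for 29 genes beside FOXP3, and none passed after Benjamini-Hochberg adjustment (lowest adjusted p = 0.345), while 4 had an unadjusted exact permutation p of 0.05 or less. CXCR6, a receptor of tissue-resident T cells, was found in 5.66 to 7.46% of members in vehicle-treated and 0.680 to 3.395% in TGFBRi-treated rats, lower in 6 of 6 treated rats than in any control (exact permutation p = 0.0238). Without thinning the CXCR6 shares overlapped, at 12.8, 22.5 and 9.26% in the vehicle-treated rats 1, 2 and 4 against 4.89 to 12.1% (exact permutation p = 0.0476). MKI67 was found in 6.82 to 9.43% against 2.03 to 5.22% (exact permutation p = 0.0238), also without overlap, but TOP2A, another gene of cycling cells, in 1.89 to 3.73% against 1.77 to 5.04%, with overlap (exact permutation p = 0.952). CCR7 was found in 38.1 to 45.3% against 43.8 to 53.6%, and S100A4 in 17.6 to 32.1% against 7.14 to 18.2% (exact permutation p = 0.0476 for both). For scale, CXCR6 was found in 0.0525%, S100A4 in 0.863%, MKI67 in 0.555% and CCR7 in 44.7% of B cells. The shares of TNFRSF4 (24.2% of all members), ICOS (29.8%), GATA3 (7.502%), TBX21 (0.954%), CXCR5 (0.737%) and PDCD1 (0.304%) overlapped between the groups.

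Whether the response to TGFBRi differed between CD4 and CD8 T cells was tested as an interaction in 1 fit over both sums of each rat. Of 13316 genes 25 (0.188%) passed, 15 (0.113%) with a lower and 10 (0.0751%) with a higher change in CD4 T cells. In the 15, all were higher after TGFBRi in CD8 T cells, 13 of them called there, and only SH2D2A was called in CD4 T cells. ACTB, of the actin skeleton, lay at 8522 to 11383 CPM in CD4 T cells of vehicle-treated and 8726 to 11777 of TGFBRi-treated rats, and at 3290 to 4675 against 5461 to 7151 in CD8 T cells (difference of log2 changes -0.62, SE 0.07, adjusted p = 0.00236). IL2RB, a chain of the receptors for interleukins 2 and 15, lay at 256 to 330 against 185 to 305 in CD4 and 91.4 to 131 against 147 to 254 in CD8 T cells (-1.10, SE 0.15, adjusted p = 0.00729). CD5, a brake on T cell receptor signaling, lay at 89.99 to 133 against 102.95 to 128 in CD4 and 23.3 to 27.5 against 52.3 to 69.6 in CD8 T cells (-1.18, SE 0.20, adjusted p = 0.0256). TMSB4X, LCP1, RAC2, MYO1G and LSP1, further genes of the actin skeleton and its regulation, had differences of -1.14 to -0.49, and TOX, ITGB7, ICOS, MCM6, SH2D2A, CD82 and MTDH made up the rest. All 15 passed again in the narrower set, but many of the 25 calls depended on single rats. Only 5 of the 25 were called in each of the 9 fits without 1 rat, and 5 were still called without vehicle-treated rat 1, 17 without rat 2 and 14 without rat 4. The 5 called throughout were ACTB, TMSB4X, MYO1G and IL2RB, and S100A11 with a higher change in CD4 T cells.

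**Figure D5:**
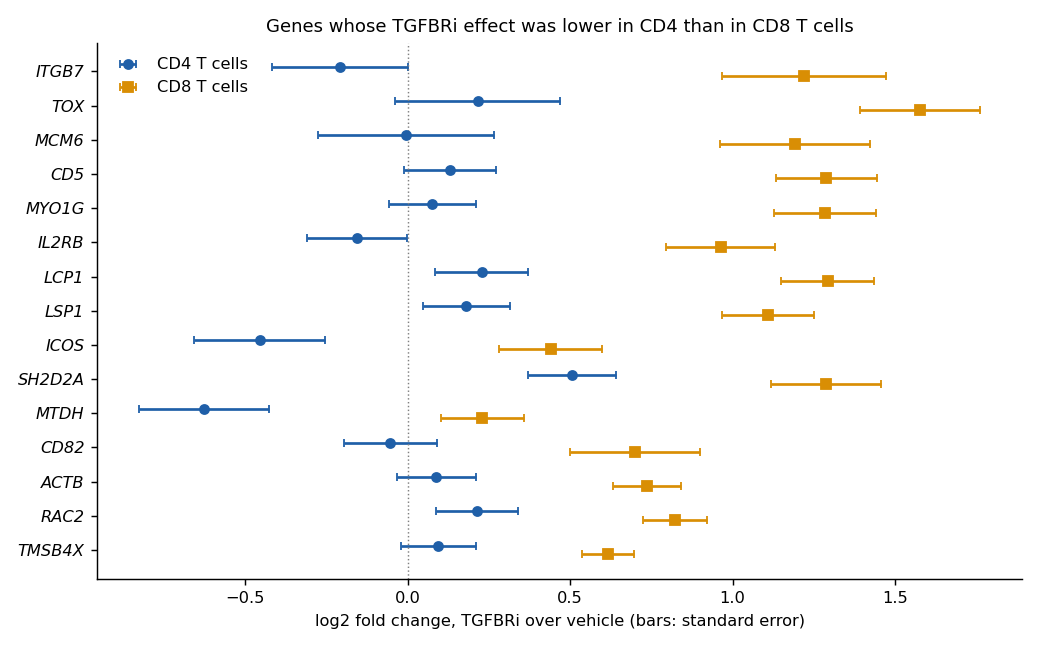
Log2 fold change between TGFBRi-treated and vehicle-treated rats (horizontal axis, bars are standard errors) of the 15 genes with a lower change in CD4 than in CD8 T cells, for CD4 (blue circles) and CD8 T cells (orange squares) of the same 9 rats. All orange squares lie above 0, and the blue circles lie between -0.63 and 0.51.

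Of the 10 genes with a higher change in CD4 T cells, none passed in the narrower set. Of the 10, S100A11 had a difference of 0.90 (adjusted p = 0.134) in the narrower set, against 1.07 in all members. There CFD, OLFML3, COX4I2 and FXYD1 had 5.03, 2.18, 2.25 and 1.37, against 8.38, 3.71, 4.53 and 2.58. ANXA5 and FCGRT were at 0.36 and 0.18, against 1.01 and 1.55, ANXA2 and NBL1 turned to -0.29 and -0.46, against 0.84 and 2.82, and HTRA3 was too low to be tested. Several are known from fibroblasts and other stroma (HTRA3, OLFML3, NBL1, CFD, FXYD1), and fibroblast markers summed to 95.8 to 1437 CPM in CD4 T cells of vehicle-treated and 286 to 2853 of TGFBRi-treated rats. In CD8 T cells the same sum was 1391 to 10498 and 465 to 4208, and its part in these 10 genes was not tested.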

How the data were processed

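Whole mammary glands of 9 rats were profiled by 5′ single-cell RNA-seq. The authors aligned the reads to rn6 with Cell Ranger 7.0.0, filtered cells and genes with Seurat 4.1.1, and deposited UMI counts per gene and cell, 1 table per rat; these counts were used as deposited (43110875 to 92699378 UMIs a table). Symbols were matched ignoring case. The members, gene lists and tests were chosen with earlier results of these data known.

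Counts of the members were summed per rat. edgeR 4.0.16 (R 4.3.3, TMM, genes with at least 10 UMIs in all) gave log2 fold changes, their SE (the fold change divided by the root of F) and Benjamini-Hochberg adjusted p-values, with 0.1 as the threshold. Within-rat comparisons had the rat as a block. Levels are CPM (counts scaled to a common total per summed library), and groups were compared as 6 TGFBRi-treated against 3 vehicle-treated rats. Shares were compared by two-sided exact permutation tests over rats, with a threshold of 0.05. Cells were thinned to 1000 UMIs where shares with a UMI were compared, each set of cells in its own random draw. The p-values measure the spread between these rats, and floors cover counting error only.

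Named genes were the 10 called genes per direction with the largest absolute log2 fold change, among those with a mean of at least 20 UMIs a rat in the higher group and with groups that did not overlap, or, within rats, the same sign in every rat. For these genes the separation of the groups or the common sign was a condition and not a result. List members that were called or abundant, and a few fixed genes, were named as well, and some of these genes are not reported here. Scrublet's own threshold marked almost no cells in most libraries and had therefore not worked, so doublets stayed in, and leaving out the 6% of cells with the highest scores was an alternative. Other alternatives were DESeq2 1.42.0, RLE scaling, other count filters, at least 3 CD3 UMIs, thinned sums, a replicate block, leaving out each rat, and leaving out members with other cells' genes; those with dendritic cell genes were chosen after seeing the data. On simulated counts with 200 planted genes at a log2 change of 2, 99% were recovered with 17 false calls in the treatment comparison (12059 genes). The planted genes had a mean of at least 20 UMIs a rat, and the counts followed the fitted trend of the dispersion without outlying rats. Recovery of smaller changes or scarcer genes was not tested.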

Additional observations from a re-analysis of the deposited data

Results flagged for a closer look

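Among 64 sets of values over the 6 TGFBRi-treated rats, 3 had a rat far from the others by Dixon's criterion, and chance flags about 1 in 20. The share of members with a CD69 UMI after thinning was 27.1% in rat 1, and the share with an IFNG UMI was 0.617% in rat 6. THBD lay at 11.4 CPM in rat 11.

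The change after TGFBRi differed between CD4 and CD8 T cells by the interaction test for 25 genes, given here as the log2 change in CD4 minus that in CD8 T cells. It was lower in CD4 T cells for ITGB7 (-1.42), TOX (-1.29), MCM6 (-1.26), CD5 (-1.18), MYO1G (-1.14), IL2RB (-1.10), LCP1 (-1.02) and LSP1 (-0.91). ICOS (-0.90), SH2D2A (-0.81), MTDH (-0.80), CD82 (-0.74), ACTB (-0.62), RAC2 (-0.59) and TMSB4X (-0.49) had the same direction. It was higher for ANXA2 (0.84), ANXA5 (1.01), S100A11 (1.07), FCGRT (1.55), FXYD1 (2.58), NBL1 (2.82), OLFML3 (3.71), COX4I2 (4.53) and HTRA3 (4.599). CFD had 0 UMIs in CD4 T cells of the vehicle-treated rats, so that its fitted difference of 8.38 depends on the prior count and is no bound.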

How the results depend on the processing

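The higher share of CD4 T cells kept its direction under each alternative run, with differences of 2.08 to 2.48 percentage points without 1 rat, and missed the threshold without any 1 vehicle-treated rat, where 0.0714 is the smallest exact permutation p possible. The CD4 part of CD4 and CD8 T cells differed by 6.98 to 16.1 points and the FOXP3 share by -5.12 to -2.20 points without 1 rat. With at least 3 CD3 UMIs the FOXP3 difference was -3.74 points and passed, and without the dendritic-gene members it was -1.87 points (exact permutation p = 0.429). Of the other state genes 7 in place of 4 had an unadjusted p of 0.05 or less without thinning, and 0 to 7 without 1 rat.

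Genes called between treatments numbered 352, and 54 to 430 without 1 rat, 155 without high Scrublet scores, 230 without members carrying other cells' markers, 213 without those and the dendritic-gene members, and 164 on thinned sums (36 higher, 128 lower). The interaction called 25 genes, 52 with DESeq2, 162 with no filter on low counts, 137 in the narrower set of both cell types, and 9 to 41 without 1 rat. Within rats the counts ranged from 4030 to 4580 (CD4 against CD8) and 2122 to 2804 (FOXP3) without 1 rat, and were 3827 and 2538 with no replicate block for the rat. A replicate block on the numbers that both treatment groups share gave 209 calls, but the numbers do not pair the rats (correlations of their deviations -0.03, -0.08 and 0.10). The causes were not tested. None of the 20 named treatment genes reversed under the alternatives run, but they were chosen for large changes without overlap, so that a reversal was unlikely. These called genes of other comparisons and lists did reverse in the narrower set: THBS1 between treatments (-1.85 to 0.89) and with FOXP3 (-1.33 to 1.24), CYB561A3 and JCHAIN against CD8 T cells (3.79 to -0.22 and 4.01 to -0.65) and with FOXP3 (-4.28 to 1.28 and -5.59 to 0.36), and ANXA2 and NBL1 in the interaction (0.84 to -0.29 and 2.82 to -0.46), as log2 values, none of them passing there. Depth limits scarce genes, the sum of vehicle-treated rat 4 being 277822 UMIs.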
